A study of Homo sapiens with 6 samples.

Results

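Lysosomal hydrolases and cathepsins, many of them lost in lysosomal storage diseases, were followed together with lysosomal membrane proteins, factors that deliver the enzymes and the regulators TFEB and TFE3 after exposure to selamectin in the established human breast cancer line MDA-MB-231. Members were taken by symbol from a list of 52 genes, and a gene counted as measured where a transcript cluster of the array carried that symbol and no other. Such a cluster pools the probes laid along 1 locus into a single value. In all, 51 of the 52 genes were measured, among 18417 genes tested, and AGA was not analysed here. The study compared 3 arrays of cells given 1 µM selamectin for 24 h with 3 control arrays. Controls are named untreated here after their titles, but the treatment protocol has vehicle, so it is not settled what they received. Selamectin, an avermectin given to animals against parasites, belongs to the macrocyclic lactones, and the series title presents avermectins as inhibitors of the SIN3 corepressor. All cells were of the same line, grown in the same serum-containing medium, and the design text calls the replicates independent with no further account of the cultures. P-values therefore measure the spread between these arrays, and 3 arrays a group limit their precision.

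The lysosome is the acidic organelle in which cells take apart glycans, lipids and proteins. Most of its soluble enzymes are made in the endoplasmic reticulum, receive a mannose 6-phosphate tag in the Golgi and are carried onward by mannose 6-phosphate receptors. TFEB and TFE3, basic helix-loop-helix factors, switch on many of these genes through a palindromic promoter element called CLEAR, whose core is an E-box. In breast cancer the cathepsins are known as proteases that some tumour cells secrete.

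Selamectin was followed by a few changes in both directions among these genes, and with most members past no threshold. In limma, a linear model fitted to the log2 values of all 18417 genes, 6 of the 51 members passed a Benjamini-Hochberg adjusted p of 0.05, against 4.69% of all genes tested. CLN6, NEU1, M6PR and HGSNAT rose, which is 7.84% of members against 2.41% of all genes, and CTSF and GAA fell, which is 3.92% against 2.28%. The other 45 members did not pass, with log2 changes between -0.41 and 0.43. At an unadjusted p under 0.05 in limma, 8 members were higher and 11 lower, or 15.7% and 21.6%, where all genes gave 11.7% and 8.21% and 19.9% in either direction. The 3 selamectin arrays all lay above the 3 untreated arrays for 10 members and all below for 13, which is 19.6% and 25.5% against 16% and 9.3% of all genes (25.3% in either direction). The median log2 change was -0.06 over the members and 0.04 over all genes tested. The 95% interval lay within a 1.5-fold change in either direction for 45 members, or 88.2%, against 91.6% of all genes. CLN6 and NEU1 alone were called without untreated array 1, without untreated array 3 or with every cluster of the table in the adjustment, and 3 members were called without selamectin array 2. With array weights, 14 members passed, as did 17.8% of all genes.

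**Figure D1:**
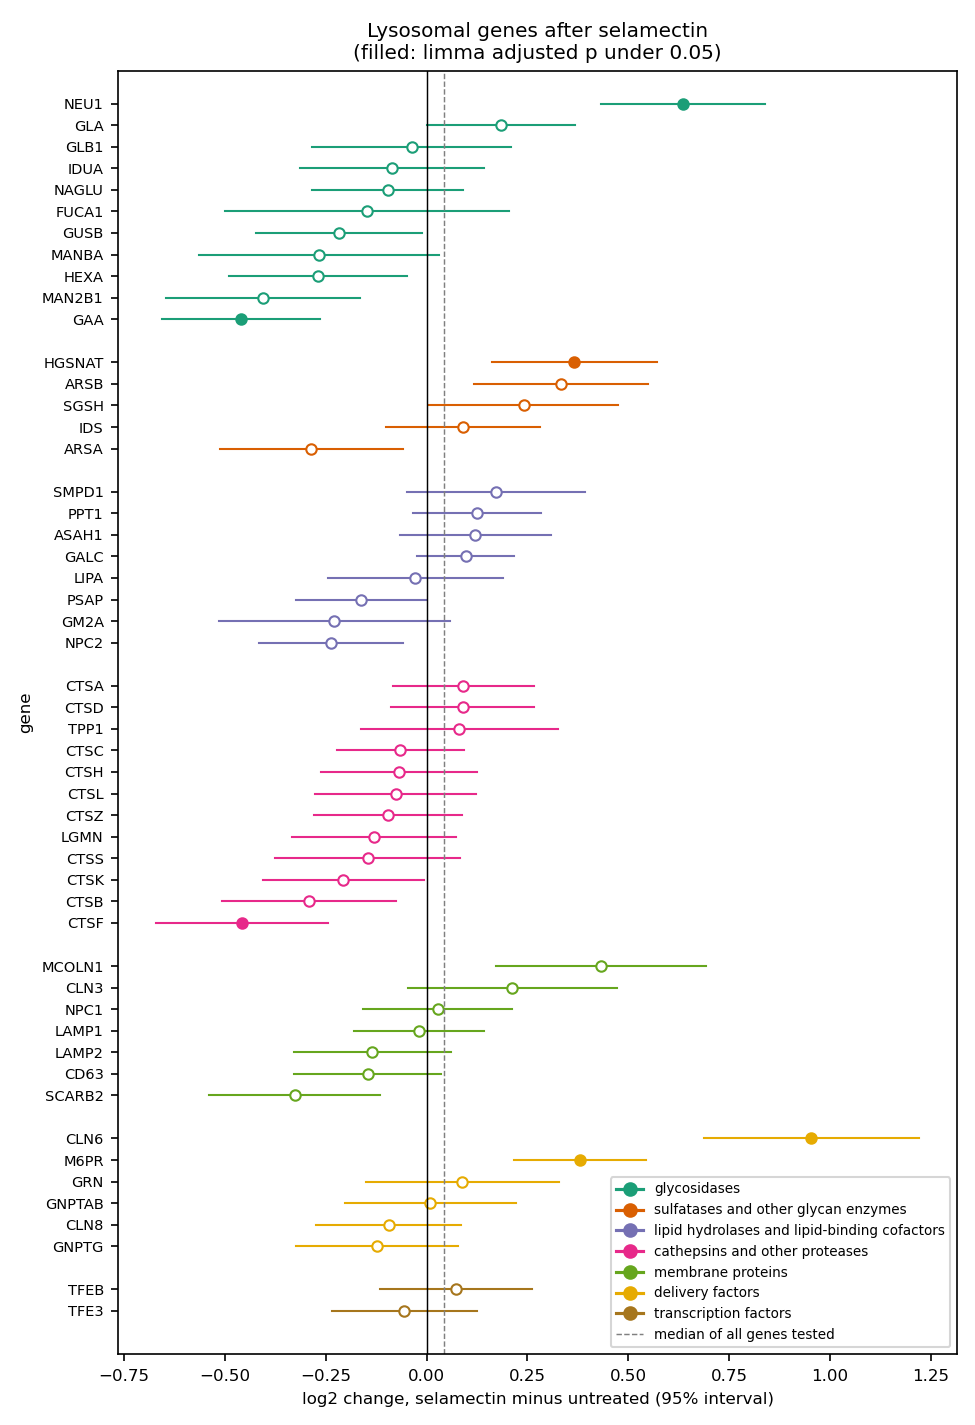
Log2 change of each of the 51 measured members (selamectin minus untreated, x axis) with its 95% interval from limma, ordered within role groups by size; filled points passed an adjusted p of 0.05, and the dashed line is the median of all genes tested, 0.04. CLN6, at 0.95, stands furthest to the right and GAA and CTSF, both at -0.46, furthest to the left, while 45 open points lie between -0.41 and 0.43.

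RefSeq promoter windows of assembly GRCh38.p14, which run from 250 bases before to 50 after an annotated gene start, were found for 38 of the 52 members. No window was matched for CLN8, CTSS, HEXA, NAGLU, MANBA, LAMP2, CTSK, HGSNAT, SGSH, ASAH1, LGMN, CTSB, PSAP and ARSA. The E-box CACGTG, a palindrome that reads the same on both strands, was present in 12 of these 38 genes, or 31.6%, and in 8.77% of all genes with a window (10.9% of those tested here). The longer form TCACGTGA, which contains the E-box, was present in 6 members, or 15.8%, against 1.18% of all genes (1.71% of those tested), and the still longer form with GT before the E-box and AC after it, which contains both, in GAA, GNPTG and MCOLN1, against 0.421% of all genes (0.646% of those tested). The stretches around the first match in the called genes NEU1, M6PR, GAA and CTSF are printed because these genes moved both ways. Those of MCOLN1, GNPTG, CTSA and LAMP1, which did not pass, are shown for comparison, and so is CLN6, the member of largest change, in whose windows the E-box letters do not occur. Further matches and parts of the longer forms can lie outside a stretch, as in GAA, CTSF, MCOLN1 and LAMP1. Capitals mark CACGTG, and each sequence is written 5′ to 3′ on the strand of its gene.
NEU1 (chr6:31862915-31862974, minus strand): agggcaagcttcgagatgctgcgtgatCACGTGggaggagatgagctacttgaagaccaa
M6PR (chr12:8949473-8949502, minus strand): agtttcccacgaCACGTGagtgtgaggggc
GAA (chr17:80101478-80101537, plus strand): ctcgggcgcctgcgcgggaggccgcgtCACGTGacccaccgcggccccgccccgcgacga
CTSF (chr11:66568697-66568756, minus strand): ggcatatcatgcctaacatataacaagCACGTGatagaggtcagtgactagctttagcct
MCOLN1 (chr19:7522556-7522615, plus strand): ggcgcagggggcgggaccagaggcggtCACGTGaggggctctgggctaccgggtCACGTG
GNPTG (chr16:1351892-1351930, plus strand): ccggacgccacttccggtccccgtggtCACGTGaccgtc
CTSA (chr20:45891266-45891325, plus strand): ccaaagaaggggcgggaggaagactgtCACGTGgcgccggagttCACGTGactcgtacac
LAMP1 (chr13:113297020-113297079, plus strand): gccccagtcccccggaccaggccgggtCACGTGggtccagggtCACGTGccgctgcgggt
CLN6 (chr15:68229729-68229828, minus strand): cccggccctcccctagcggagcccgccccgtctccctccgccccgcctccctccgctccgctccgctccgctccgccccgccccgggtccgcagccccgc

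The E-box was found on both sides of the comparison. It begins 126 bases before the gene start in NEU1 and 80 before 1 of the annotated starts in M6PR, both of which rose, and 76 and 123 bases before the start in GAA and CTSF, both of which fell and each of which holds a second match closer to the start. Of the 12 measured members with a match, 2 rose, 2 fell and 8 did not pass, with a median log2 change of 0.09. Of the 25 measured members whose windows held none, 1 rose and 24 did not pass, with a median of -0.04. Of all genes tested, 69 rose and 34 fell among 1557 with a match, where the median was 0.06, and 308 rose and 303 fell among 12682 without, where it was 0.04. LAMP1 holds 6 matches in its window, and its log2 change was -0.02 with an interval from -0.18 to 0.14. A match describes letters in these windows and does not show that a factor binds there.

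Among factors that build or deliver lysosomal enzymes, CLN6 and M6PR rose and 4 others did not pass. That is 33.3% higher and 0% lower, where 2.41% of all genes rose and 2.28% fell. CLN6 encodes an endoplasmic reticulum protein that, together with CLN8, helps newly made lysosomal enzymes leave that compartment. Its log2 values were 10.60, 10.60 and 10.84 on the untreated arrays and 11.37, 11.72 and 11.82 on the selamectin arrays. Every selamectin array lay above every untreated array, by a gap wider than the range inside either group. CLN6 rose 1.94-fold (log2 change 0.95 ± 0.12 SE, limma adjusted p = 0.0043), the largest change of any member in either direction. M6PR, the cation-dependent mannose 6-phosphate receptor that carries tagged enzymes from the Golgi, stood at 11.60, 11.60 and 11.66 untreated and at 11.99, 12.06 and 11.95 with selamectin. It rose 1.30-fold (log2 change 0.38 ± 0.07 SE, limma adjusted p = 0.018), and both groups were tight, with SDs of 0.03 and 0.06. Its span overlaps PHC1 in the RefSeq table, whose log2 change was -0.25 (adjusted p = 0.15). The call of M6PR was lost without untreated array 1 (adjusted p = 0.073), untreated array 3 (0.072) or selamectin array 2 (0.098), while that of CLN6 held whichever array was left out (adjusted p up to 0.028).

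CLN8, the partner of CLN6, did not pass, and the difference between their changes was not tested. Its log2 values were 7.41, 7.41 and 7.38 untreated and 7.35, 7.32 and 7.25 with selamectin, a change of -0.09 (interval -0.27 to 0.08, limma adjusted p = 0.56). A second CLN8 cluster changed by -0.05 (adjusted p = 0.79 in limma over all clusters of 1 symbol). GNPTAB and GNPTG encode subunits of the Golgi enzyme that starts the mannose 6-phosphate tag. GNPTAB stood at a log2 change of 0.01 (interval -0.20 to 0.22). GNPTG ran 9.78, 9.86 and 9.87 untreated and 9.81, 9.70 and 9.62 with selamectin, a change of -0.12 (adjusted p = 0.50) in which the groups overlapped. GRN, the progranulin gene, whose protein is cut into granulins in the lysosome, had a log2 change of 0.09 (interval -0.15 to 0.33).

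The genes of the regulators TFEB and TFE3 did not pass. TFEB stood at log2 values of 8.19, 8.14 and 8.11 untreated and 8.24, 8.24 and 8.18 with selamectin, a change of 0.07 (interval -0.12 to 0.26, limma adjusted p = 0.68). TFE3 stood at 10.29, 10.29 and 10.31 untreated and 10.20, 10.28 and 10.24 with selamectin, a change of -0.05 (interval -0.24 to 0.13, adjusted p = 0.75). For both, the interval lay within a 1.5-fold change in either direction. The activity of these factors is set largely by their movement into the nucleus, which an array does not measure.

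**Figure D2:**
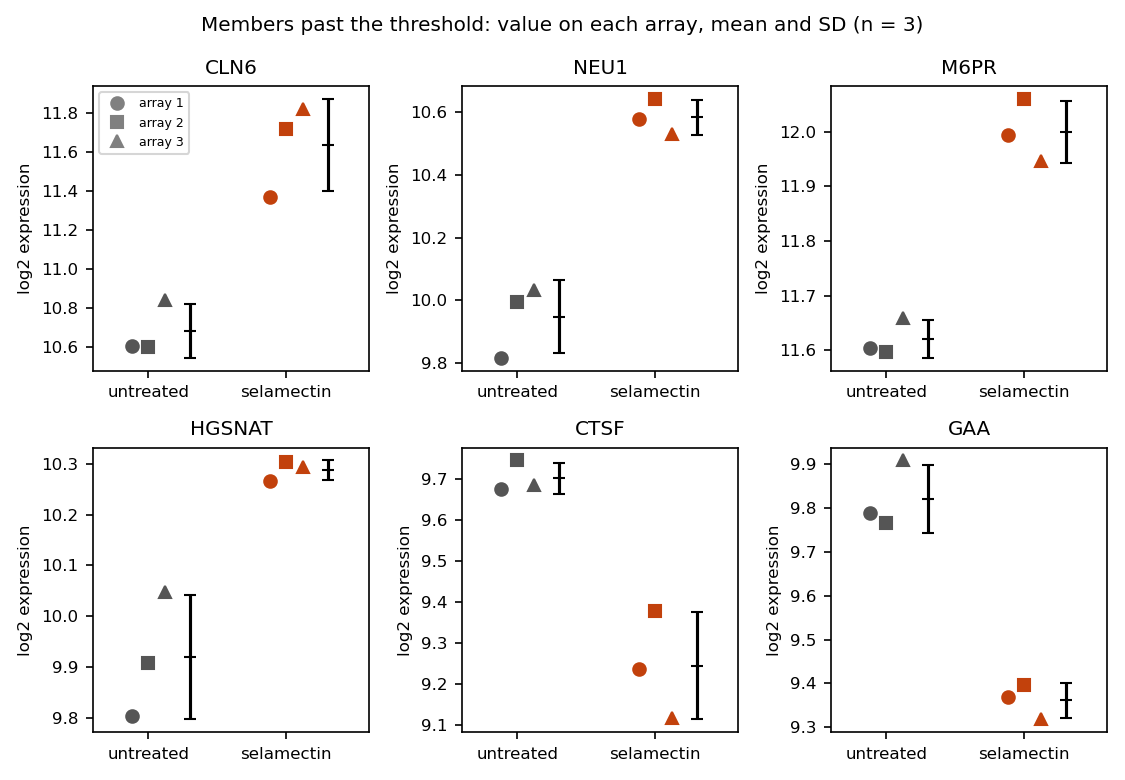
Log2 expression (y axis) of the 6 members past the threshold on each array, with untreated arrays in grey and selamectin arrays in orange, marker shapes giving the array number and black bars the mean ± SD (n = 3); each panel has its own scale, which does not start at 0. In each panel the groups do not overlap, with CLN6, NEU1, M6PR and HGSNAT higher and CTSF and GAA lower with selamectin.

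Of 11 measured glycosidases, which clip sugars from glycoproteins, glycolipids and glycogen, NEU1 rose, GAA fell and 9 did not pass. Over all genes tested, 2.41% rose and 2.28% fell. A negative log2 change was found for 9 of the 11, against 6819 of all 18417 genes. The median of the glycosidases was -0.15, against 0.04 over all genes. At an unadjusted p under 0.05 in limma, 2 were higher and 4 lower, or 18.2% and 36.4%, against 11.7% and 8.21% of all genes.

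NEU1, the lysosomal sialidase that removes terminal sialic acids, stood at log2 values of 9.82, 10.00 and 10.03 untreated and 10.58, 10.64 and 10.53 with selamectin. All selamectin arrays lay above the highest untreated array, by a gap wider than the range inside either group. NEU1 rose 1.55-fold (log2 change 0.64 ± 0.09 SE, limma adjusted p = 0.0054), and the call held whichever array was left out (adjusted p up to 0.034). The array has 3 NEU1 clusters. The other two held identical values on every array, so they count as 1 measurement, and they changed by 0.57 (limma adjusted p = 0.0096 over all clusters of 1 symbol). NEU1 works in a complex with the protective protein encoded by CTSA and with the beta-galactosidase encoded by GLB1. CTSA had a log2 change of 0.09 (interval -0.08 to 0.27) and GLB1 one of -0.04 (interval -0.28 to 0.21), and the differences between these changes and that of NEU1 were not tested. In the RefSeq table CTSA overlaps PLTP (log2 change -0.01, limma adjusted p = 0.98) and GLB1 overlaps TMPPE (0.20, 0.35).

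GAA, the acid alpha-glucosidase that degrades lysosomal glycogen and is lost in Pompe disease, stood at 9.79, 9.77 and 9.91 untreated and 9.37, 9.40 and 9.32 with selamectin. It was 1.38-fold lower (log2 change -0.46 ± 0.09 SE, limma adjusted p = 0.018), and the groups were far apart relative to their SDs of 0.08 and 0.04. The call was lost without untreated array 1 (adjusted p = 0.063), untreated array 3 (0.10) or selamectin array 2 (0.067). MAN2B1, the lysosomal alpha-mannosidase, stood at 10.09, 10.50 and 10.28 untreated and 9.92, 9.86 and 9.87 with selamectin. Its log2 change of -0.41 (interval -0.65 to -0.16) had a limma adjusted p of 0.061 and did not pass. The untreated arrays of MAN2B1 were spread (SD 0.21) and the selamectin arrays close together (SD 0.03), without overlap.

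HEXA, the alpha subunit of beta-hexosaminidase that is lost in Tay-Sachs disease, had a log2 change of -0.27 (interval -0.49 to -0.05, limma adjusted p = 0.16), and GUSB, the beta-glucuronidase, one of -0.22 (adjusted p = 0.23). GUSB also appears on a cluster of several gene names that was not used, and it has near-identical pseudogene copies, so its value is uncertain. GLA, the alpha-galactosidase of Fabry disease, was the only glycosidase besides NEU1 with a positive change, at 0.18 (adjusted p = 0.25), and its groups did not overlap. MANBA stood at -0.27, FUCA1 at -0.15, NAGLU at -0.10 and IDUA at -0.09, each with overlapping groups. The span of IDUA overlaps SLC26A1 in the RefSeq table, whose log2 change was 0.15 (limma adjusted p = 0.43), and a share of SLC26A1 signal in IDUA was not tested.

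The sulfatases, which remove sulfate from glycans and lipids, were grouped with the acetyltransferase HGSNAT. Of 5 measured, HGSNAT rose, or 20%, and 4 did not pass, where 2.41% of all genes rose and 2.28% fell. On the brightest cluster of each gene, 4 stood higher on every selamectin array than on any untreated array, as did 16% of all genes. ARSA stood lower on every one, as did 9.3% of all genes. The median of the 5 was 0.24 against 0.04 over all genes. HGSNAT, the membrane-bound acetyltransferase of heparan sulfate breakdown, stood at log2 values of 9.80, 9.91 and 10.05 untreated and 10.27, 10.30 and 10.29 with selamectin. It rose 1.29-fold (log2 change 0.37 ± 0.09 SE, limma adjusted p = 0.049) with a narrow spread in the treated group (SD 0.02). This is the weakest of the 6 calls: it was lost without any one array, with adjusted p from 0.054 without selamectin array 3 to 0.18 without untreated array 1, and with a replicate block (0.067).

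ARSB, the sulfatase of dermatan and chondroitin sulfate, stood at 9.32, 9.46 and 9.54 untreated and 9.83, 9.82 and 9.66 with selamectin. Its log2 change of 0.33 (interval 0.12 to 0.55) had a limma adjusted p of 0.079, and it passed without selamectin array 3 (0.043) and with array weights (0.027). ARSA, the sulfatase of the myelin lipid sulfatide, ran the other way, from 9.22, 9.22 and 9.15 untreated to 9.02, 8.99 and 8.72 with selamectin, a change of -0.29 (adjusted p = 0.15). SGSH, the heparan sulfamidase, had a log2 change of 0.24 (adjusted p = 0.24). IDS, the iduronate sulfatase, stood at 0.09 on its brighter cluster and at -0.10 on its other cluster, so its clusters disagree in sign.

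None of the 8 lipid hydrolases and lipid-binding cofactors passed in limma, where 4.69% of all genes did. At an unadjusted p under 0.05 in limma, 2 were lower, or 25%, and 0 higher, against 8.21% and 11.7% of all genes. The median log2 change of these 8 was 0.03, and it ran from -0.03 to 0.07 over the settings tried. The 3 soluble cofactors NPC2, PSAP and GM2A had negative changes, and 4 of the 5 hydrolases positive ones. NPC2, which hands cholesterol to NPC1 inside the lysosome, stood at log2 values of 12.26, 12.30 and 12.20 untreated and 12.06, 12.11 and 11.88 with selamectin, a change of -0.24 (interval -0.41 to -0.06, adjusted p = 0.13). PSAP, the precursor of the saposins that lift lipids toward their hydrolases, stood at 12.99, 12.94 and 13.06 untreated and 12.92, 12.86 and 12.72 with selamectin, a change of -0.16 (adjusted p = 0.25). In neither did the groups overlap.

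GM2A, the ganglioside activator that serves beta-hexosaminidase, had a log2 change of -0.23 (limma adjusted p = 0.36), with selamectin array 3 at 9.90 and selamectin arrays 1 and 2 at 10.30 and 10.47. SMPD1, the acid sphingomyelinase, stood at 0.17 (interval -0.05 to 0.39), PPT1, a thioesterase that removes palmitate, at 0.13 (interval -0.03 to 0.28) and ASAH1, the acid ceramidase, at 0.12 (interval -0.07 to 0.31). GALC, the galactosylceramidase of Krabbe disease, stood at 4.81, 4.86 and 4.86 untreated and 4.99, 4.96 and 4.87 with selamectin, a change of 0.10 (adjusted p = 0.36). Those values lie below 5.03, the 5th percentile of untreated means over all genes, and without detection calls it is not known whether GALC was above background. LIPA, the acid lipase of cholesteryl esters, stood at -0.03 (interval -0.25 to 0.19). In the RefSeq table its span overlaps genes of the IFIT family, of which IFIT3 (0.50) and IFIT1B (0.30) passed, and a share of their signal in LIPA was not tested.

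Among 12 lysosomal proteases, 1 fell and none rose, where 2.28% of all genes fell and 2.41% rose. A negative log2 change was found for 9 of the 12, against 6819 of all 18417 genes. The median was -0.09, against 0.04 over all genes. At an unadjusted p under 0.05 in limma, 3 were lower, or 25%, and 0 higher, where 8.21% of all genes were lower and 11.7% higher. CTSF, the cysteine protease cathepsin F, stood at log2 values of 9.68, 9.74 and 9.69 untreated and 9.24, 9.38 and 9.12 with selamectin. It was 1.37-fold lower (log2 change -0.46 ± 0.10 SE, limma adjusted p = 0.025). The call was lost without untreated array 1 (adjusted p = 0.085), 2 (0.056) or 3 (0.097) or selamectin array 1 (0.061).

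CTSB, cathepsin B, a cysteine protease often studied in tumour invasion, stood at 11.46, 11.60 and 11.61 untreated and 11.43, 11.28 and 11.09 with selamectin. Its log2 change of -0.29 (interval -0.51 to -0.08, limma adjusted p = 0.12) did not pass, and selamectin array 1 lay close to untreated array 1. CTSK, the collagen-degrading cathepsin of osteoclasts, stood at 6.15, 6.03 and 6.34 untreated and 6.07, 5.95 and 5.87 with selamectin, a change of -0.21 (adjusted p = 0.23) with overlapping groups. Both lie in the same direction as CTSF, at smaller size.

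The other 9 proteases had log2 changes between -0.15 and 0.09 and adjusted p of 0.47 or more, each with overlapping groups. The aspartic protease CTSD (interval -0.09 to 0.27), the dipeptidyl peptidase CTSC (interval -0.22 to 0.09) and the cysteine protease CTSL (interval -0.28 to 0.12) had intervals inside a 1.5-fold change. LGMN, the asparaginyl endopeptidase that matures several cathepsins, stood at -0.13 and CTSS, the cathepsin of antigen-presenting cells, at -0.15. CTSZ stood at -0.10, CTSH at -0.07 and CTSA at 0.09. TPP1, a tripeptidyl peptidase lost in a childhood neuronal ceroid lipofuscinosis, stood at 0.08 with a treated SD of 0.22, since selamectin array 3 was at 10.58 and the other two at 10.99 and 10.93.

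Of 7 membrane proteins none passed in limma, with 1 higher and 1 lower at an unadjusted p under 0.05. Their median log2 change was -0.02, and it ran from -0.05 to 0.003 over the settings tried. MCOLN1, the lysosomal calcium channel TRPML1, stood at log2 values of 9.59, 10.01 and 10.01 untreated and 10.26, 10.27 and 10.37 with selamectin. Its change of 0.43 (interval 0.17 to 0.69) had an adjusted p of 0.063, with no overlap and a low value on untreated array 1. SCARB2, the receptor that takes beta-glucocerebrosidase to lysosomes, stood at 10.83, 10.55 and 10.71 untreated and 10.45, 10.35 and 10.32 with selamectin, a change of -0.33 (interval -0.54 to -0.12, adjusted p = 0.081), again with no overlap.

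CLN3, a multipass protein lost in juvenile neuronal ceroid lipofuscinosis, stood at 9.43, 9.78 and 9.63 untreated and 9.64, 9.90 and 9.93 with selamectin, a change of 0.21 (limma adjusted p = 0.35) with overlapping groups. LAMP1 and LAMP2 encode the main glycoproteins that line the lysosomal membrane. LAMP1 had a log2 change of -0.02 (interval -0.18 to 0.14) and LAMP2 one of -0.13 (interval -0.33 to 0.06). CD63, a tetraspanin of late endosomes, stood at -0.15 (interval -0.33 to 0.04) and NPC1, the membrane cholesterol transporter that receives cholesterol from NPC2, at 0.03 (interval -0.16 to 0.21).

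**Figure D3:**
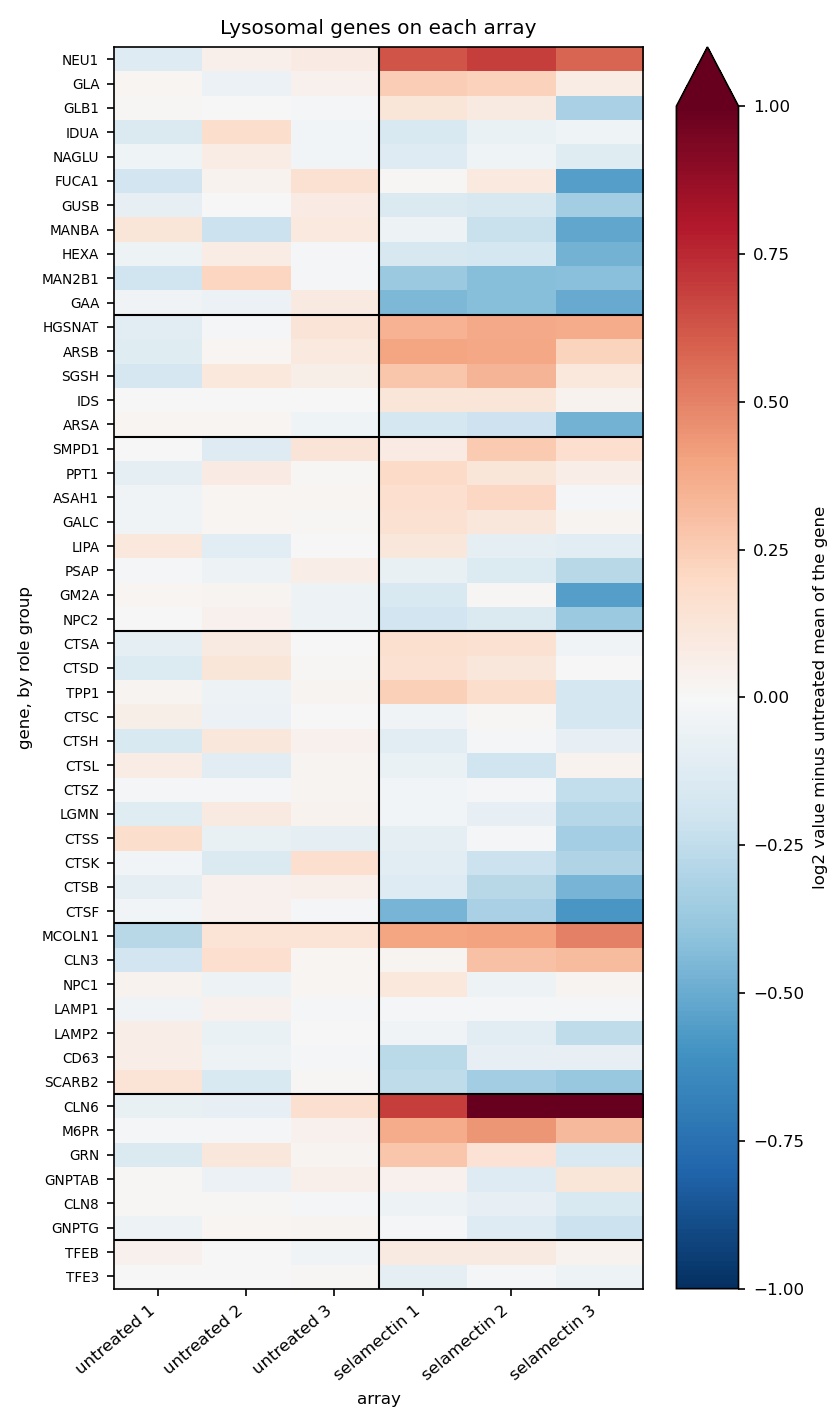
Log2 value of each member (rows, grouped by role and separated by lines) on each array (columns), minus the untreated mean of that gene; red is above, blue below, and colours stop at 1 in either direction. CLN6 exceeds 1 on selamectin arrays 2 and 3, and many enzymes are bluest on selamectin array 3, with FUCA1, GM2A, CTSF and GAA among them.

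The 3 selamectin arrays did not carry the same values for many of these genes. Selamectin array 3 was the lowest of the 3 for 36 of 51 members, or 70.6%, against 48.1% of all genes tested. Its median difference from the mean of selamectin arrays 1 and 2 was -0.13 log2 units over the members and -0.05 over all genes. The difference was largest for FUCA1, the alpha-fucosidase (-0.61), GM2A (-0.48), GLB1 (-0.43), MANBA, a beta-mannosidase (-0.38), TPP1 (-0.38) and GRN (-0.36). Array 3 was the lowest for 8 of 11 glycosidases, 7 of 8 lipid hydrolases and cofactors and 10 of 12 proteases, but for 2 of 7 membrane proteins. It was also the lowest for 4 of 5 sulfatases and other glycan enzymes and 4 of 6 delivery factors. Outside the members, it was the lowest for 15 of 20 other hydrolases, 8 of 14 other delivery and storage disease genes and 6 of 7 cystatins. It was the lowest for 10 of 16 other lysosomal membrane genes, or 62.5%, with a median difference of -0.12 for these 16. It was the highest for CLN6, by 0.28 over the mean of the other two. Relative to the untreated mean, the glycosidases averaged -0.04, -0.04 and -0.24 on selamectin arrays 1, 2 and 3, and the proteases -0.04, -0.06 and -0.22, where all genes averaged 0.04, 0.05 and -0.01. The part of this array in the differences between groups is given by the values without it, and what set it apart was not tested.

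Without selamectin array 3, the number of called members was again 6, of which 5 were the same genes: ARSB passed and HGSNAT did not. The median log2 change of the members was then -0.02, that of the glycosidases -0.11 and that of the proteases -0.05, where all genes had 0.06. Over the 16 alternative settings, left-out arrays included, the median of the members stayed between -0.09 and -0.02 while that of all genes stayed between 0.03 and 0.06. The medians of the glycosidases and proteases thus kept their negative sign without array 3 and moved closer to 0.

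**Figure D4:**
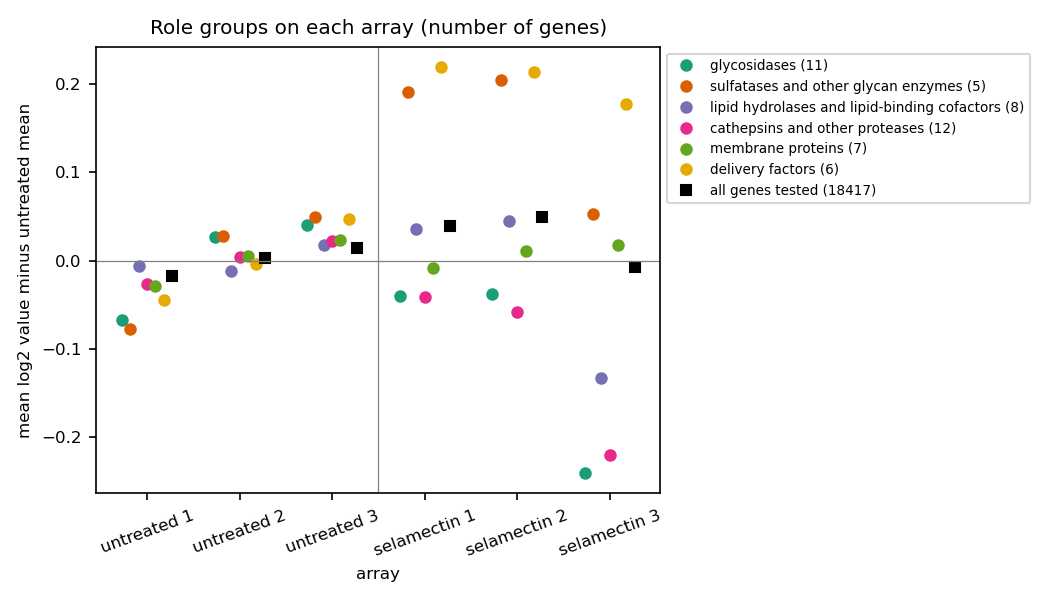
Mean log2 value of the genes of each role group on each array, minus the mean on the untreated arrays (y axis), with the number of genes in brackets and all genes tested as black squares. On selamectin array 3 the glycosidases (-0.24), the proteases (-0.22) and the lipid hydrolases with their cofactors (-0.13) lie below their values on selamectin arrays 1 and 2, while the membrane proteins (0.02) do not. The sulfatases with HGSNAT (0.05), the delivery factors (0.18) and all genes tested (-0.01) also lie lower there.

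Other lysosomal genes, from lists of 65 genes outside the members, gave 57 measured genes, of which 2 rose and none fell in limma. That is 3.51% against 4.69% of all genes. At an unadjusted p under 0.05 in limma 6 were higher and 9 lower, or 10.5% and 15.8%, against 11.7% and 8.21% of all genes. ACP2, the lysosomal acid phosphatase, stood at log2 values of 10.39, 10.51 and 10.59 untreated and 11.33, 11.16 and 10.94 with selamectin and rose 1.57-fold (log2 change 0.65 ± 0.11 SE, adjusted p = 0.0097). It lost its call without untreated array 1 (adjusted p = 0.055). FUCA2, a secreted alpha-fucosidase, stood at 11.32, 11.37 and 11.42 untreated and 11.68, 11.68 and 11.72 with selamectin and rose 1.25-fold (limma adjusted p = 0.035). Leaving out selamectin array 3 kept this call, and leaving out any of the other 5 arrays ended it (adjusted p from 0.064 to 0.13), as did a replicate block (0.062). Its relative FUCA1, which acts in the lysosome, stood at -0.15, and this difference was not tested.

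The median log2 change was -0.09 over 20 other hydrolases, -0.04 over 14 other delivery and storage disease genes, -0.0002 over 16 other membrane genes and 0.08 over 7 cystatins, the inhibitors of cysteine cathepsins. Over the alternative settings the medians of the delivery and membrane lists changed sign, and that of the cystatins ran from 0.001 to 0.20. None of the last 3 lists held a call in limma, with 4, 4 and 0 genes at an unadjusted p under 0.05. In the delivery list 14.3% were higher and 14.3% lower at that p. In the membrane list 12.5% were higher and 12.5% lower, against 11.7% and 8.21% of all genes. CTNS, the cystine exporter lost in cystinosis, stood at 0.36 (limma adjusted p = 0.063). It passed without the eBayes trend (0.046), without the dimmest 25% of genes (0.0498) and with array weights (0.048). NAGPA, the Golgi enzyme that uncovers the mannose 6-phosphate tag, stood at 0.34 (adjusted p = 0.10), CLCN7, the lysosomal chloride and proton exchanger, at 0.27 (0.13) and SIDT2, a lysosomal membrane protein, at -0.32 (0.13). CSTB, the intracellular cystatin, stood at 0.16 (0.28) and CST6 at 0.14 (0.42). IGF2R, the other mannose 6-phosphate receptor, is named here after its value was seen: it stood at -0.26 (adjusted p = 0.16), opposite in sign to M6PR, and this difference was not tested. On the same terms, DPP7 (-0.32, adjusted p = 0.083) and CTSV (-0.31, 0.066) were lower on every selamectin array without passing. They were among 7 of the 20 other hydrolases lower without overlap, or 35%, against 9.3% of all genes. Another 2, or 10%, were higher without overlap, against 16% of all genes.

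Across genes, which are not independent replicates, Pearson's r ran from 0.9949 to 0.9971 within groups and from 0.9913 to 0.9954 between them. A list drawn up for mesenchymal breast cancer cells held VIM, CD44, AXL, CAV1, FN1 and EGFR and the epithelial keratins KRT8 and KRT18. These 8 genes had untreated log2 means between 8.63 and 13.71, and the brightest were KRT8 (13.71) and KRT18 (13.41). CD44 was the only one called (log2 change 0.42, limma adjusted p = 0.020). At an unadjusted p under 0.05 in limma 3 of the 8 were higher and 2 lower, or 37.5% and 25%, against 11.7% and 8.21% of all genes. The lower ones were FN1 (-0.43, adjusted p = 0.083) and EGFR (-0.32, adjusted p = 0.053). The 9 leukocyte markers had untreated means between 4.84 and 8.60, none called in limma and 0 at an unadjusted p under 0.05. Of 6 fibroblast markers 2 were higher at an unadjusted p under 0.05, or 33.3% against 11.7% of all genes, of which PDGFRB was called (0.34, limma adjusted p = 0.040). Of 5 endothelial and 5 hormone receptor markers none was called in limma, with 2 and 0 at an unadjusted p under 0.05. The 2 were CDH5 (-0.59, limma adjusted p = 0.067) and VWF (0.18, 0.25), or 20% each way against 8.21% lower and 11.7% higher of all genes. Untreated means lay between 5.5 and 9.5 for the endothelial markers. They lay between 5.5 and 9.0 for the fibroblast and between 5.6 and 9.8 for the hormone receptor markers. The leukocyte log2 values summed to between 55.22 and 56.19 on untreated arrays and between 55.80 and 55.93 on selamectin arrays. Probes of different clusters differ in brightness, so these levels do not show which gene is more abundant, and without detection calls no gene can be called absent. In a bulk RNA sample fewer cells and less RNA per cell cannot be told apart.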

How the data were processed

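The members and gene lists were chosen with earlier results of these data known. Total RNA was labelled with biotin and hybridised to whole-transcript Affymetrix arrays, per the labels' protocols. The authors deposited 1 value per transcript cluster and array, taken here as log2 RMA values, although no header states the log base. RMA, Expression Console and Transcriptome Analysis Console, both of the latter from Affymetrix, are named without version or setting per the submitters' processing notes, and no genome build was found for the table. RMA as commonly run removes shifts shared by all genes and compresses changes of dim genes. Array medians lay between 7.47 and 7.51. No scan dates, scanner files or detection calls were used, so no batch was tested. Of 33297 clusters, 19460 had 1 symbol in the platform annotation, 1754 several (left out) and 12083 none; 19429 symbols were found by Entrez number in RefSeq and 0 changed. The brightest cluster stood for each of 18417 genes.

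Genes were fitted with limma 3.58.1 in R 4.3.3 (lmFit, eBayes with trend, two-sided, no block), adjusted by Benjamini-Hochberg across the 18417 genes, and called at 0.05. The fit was tested on simulated data. Members given array by array are those called and the 3 of smallest p in each role group; of the other lists, those called and the 2 of smallest p are named. Other settings left out each array in turn or changed the normalization, filter, variance model, weights, block, features or threshold. Promoter windows are RefSeq's.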

Additional observations from a re-analysis of the deposited data

How the results depend on the processing

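CLN6 and NEU1 kept their calls under all 16 alternatives. Of the values of single named genes under an alternative, 404 kept their direction and side of the threshold, 31 kept direction and lost the call, 11 kept direction and gained one, and 0 reversed. With all 33297 clusters in the fit, 2 members were called higher and 0 lower, and 0 of the other lysosomal genes higher. Array weights gave 6 members called higher and 8 lower, and 3 other lysosomal genes higher and 5 lower. Of all genes, 17.8% were then called. Untreated array 3 then weighed 5.11 and the other arrays between 0.45 and 1.22. At an adjusted p of 0.1, 6 members were higher and 4 lower, and 3 other lysosomal genes higher and 3 lower. The share of all genes at that threshold was not counted. Leaving out each array in turn gave between 2 and 4 members higher, between 0 and 2 lower, and between 0 and 2 other lysosomal genes higher; 2 members were called without untreated array 1 or untreated array 3, and 3 without selamectin array 2. A replicate block by the titles' numbers gave 3 members higher and 2 lower and 1 other lysosomal gene higher. Same-numbered arrays had correlations of -0.01, 0.24 and -0.14 in their deviations from group means, and differently numbered arrays between -0.21 and 0.30. With 3 arrays a group, these values do not settle whether same-numbered arrays shared a culture or batch. Leaving out an array also lowers the number of arrays, and using all clusters raises the number of features tested. The cause of these differences was not tested.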
